A study of Mus musculus with 9 samples.

Results

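The perilipins Plin1, Plin2, Plin3, Plin4 and Plin5 were followed through the livers of mice on 3 diets. The whole array carried 27342 gene names. Members were the array probes whose gene name was one of these symbols or an older one (Plin, Adfp, M6prbp1, S3-12, Lsdp5). They came to 5 of 41174 probes, 1 for each gene. Liver RNA was measured in male C57bl/6J mice aged 16 weeks after 12 weeks on a diet. HFD+APS livers came from mice given a high-fat diet (60 kcal% fat) mixed with Astragalus polysaccharides (APS, carbohydrates of a medicinal plant) at 40 g per kg of diet, HFD livers from mice on the same high-fat diet alone, and chow livers from mice on standard food. Each group held 3 livers with 1 array each, chosen by the study from 24 mice by their histology and triglyceride results, so p-values measure the spread between these chosen livers. The labels name no transgene or induced mutation in any group.

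Perilipins coat the surface of lipid droplets, the organelles in which cells store triglyceride, and control the access of lipases to the stored fat. Plin1 is the main droplet coat of adipocytes, Plin2 coats droplets in hepatocytes and most other cells, and Plin3 moves between the cytosol and newly formed droplets. Plin4 coats small droplets in adipocytes and muscle, and Plin5 is found in tissues that burn much fat, where it links droplets to mitochondria. In liver, Plin2 is widely used as a marker of fat accumulation, and several perilipin genes are targets of the PPAR family of fatty acid receptors.

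Every value below was read by a single probe of 60 bases per gene, and the first 30 bases of each probe are given because they show what the array could detect. Positions are those of the array's mm9 annotation, all on the minus strand, and whether they fall in an exon or a UTR was not determined here. The Plin1 probe (A_51_P244497) lay at chr7:86866112-86866171 and the Plin2 probe (A_51_P258150) at chr4:86302676-86302735. The other 3 shared chromosome 17, with Plin3 (A_51_P223404) at chr17:56418429-56418488, Plin4 (A_51_P495780) at chr17:56240055-56240114 and Plin5 (A_51_P262757) at chr17:56251101-56251160. In RefSeq's GRCm38 annotation 0 genes lay between Plin4 and Plin5, and 9 lay between Plin5 and Plin3.
Plin1: catcagaaccaatttttaaggggcaccaga
Plin2: tgtgttagtcttgtgaggacctggaggaac
Plin3: ggatgttgcaattgtttcagatgagaaagt
Plin4: cagcctgtgggtatgagacctgccctgaat
Plin5: gctggaggaagacctggtgcccacatcatc

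Levels are log2 signals relative to the 75th percentile of the probes on the same array, and they are compared between groups for 1 probe at a time. Hepatocyte markers were well above background on every array (10 of 10), with summed relative signals of 2688 to 3418 in HFD+APS, 2810 to 3175 in HFD and 2895 to 3118 in chow livers. Single markers moved within these sums. In HFD+APS against HFD 1 of 10 rose, Cps1 of the urea cycle (1.11 ± 0.19, limma adjusted p = 0.0346), and 0 fell. Of all features 0.476% rose and 1.03% fell in that comparison. An unadjusted limma p under 0.05 was reached by 4 of the 10, beside 17.9% of all features. The arrays lay on 3 slides: HFD+APS 1 shared a slide with the 3 HFD arrays, HFD+APS 2 and HFD+APS 3 lay on another, and the chow arrays filled the remaining one. Chow arrays thus shared no slide with either other group. Differences of HFD or HFD+APS from chow therefore cannot be told apart from differences between slides. Between 50.4 and 54.1% of spots were detected well above background on the HFD slide, 63.5 to 64.5% on the slide of HFD+APS 2 and 3, and 61.5 to 68.4% on the chow slide. Chow 1 stood apart in adipocyte RNA: Adipoq, the adipocyte hormone adiponectin, was at -1.02 there and at -4.42 or lower on every other array, where it was not well above background.

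The HFD+APS and HFD livers were compared to ask what the polysaccharides changed in fat-fed liver, and Plin4 was the perilipin that fell. Its level was 1.85, 1.42 and 1.87 in HFD+APS livers, against 4.85, 3.35 and 4.04 in HFD livers and 3.19, 3.35 and 3.46 in chow livers. The 3 HFD+APS values lay below all 6 others, and the HFD livers spread more widely than the livers of either other group. The processed signals before scaling were also lowest in HFD+APS, at 848, 688 and 903 units. They were 7007, 2701 and 4298 in HFD and 2156, 2138 and 2692 in chow. Means were 1.72 ± 0.25 in HFD+APS and 4.08 ± 0.75 in HFD (SD, n = 3 each). The log2 difference was -2.36 ± 0.33 (SE; limma adjusted p = 0.0214), a signal 5.13-fold lower in HFD+APS, with a 95% interval of -3.12 to -1.60. By size this was rank 46 among 17635 features tested.

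Of the 4 perilipins tested in HFD+APS against HFD, 1 fell and 0 rose, beside 1.03% of all features that fell, 0.476% that rose and 1.5% called in either direction. At an unadjusted p under 0.05 the count was also 1, beside 17.9% of all features. Plin4 was also the 1 member whose groups did not overlap, as did 24.5% of all features. Its call was lost in a fit of these 2 groups alone (adjusted p = 0.0862), without HFD 3 (-2.38, adjusted p = 0.0562), without HFD+APS 2 (-2.21, adjusted p = 0.0748) and without HFD+APS 3 (-2.44, adjusted p = 0.0695). On the slide that held both groups HFD+APS 1 was the only HFD+APS array. With slide as a fixed block the difference was -2.22 ± 0.49 (limma adjusted p = 0.0962), and over the 4 arrays of that slide alone it was -2.22. Both values set HFD+APS 1 against the 3 HFD arrays.

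**Figure D1:**
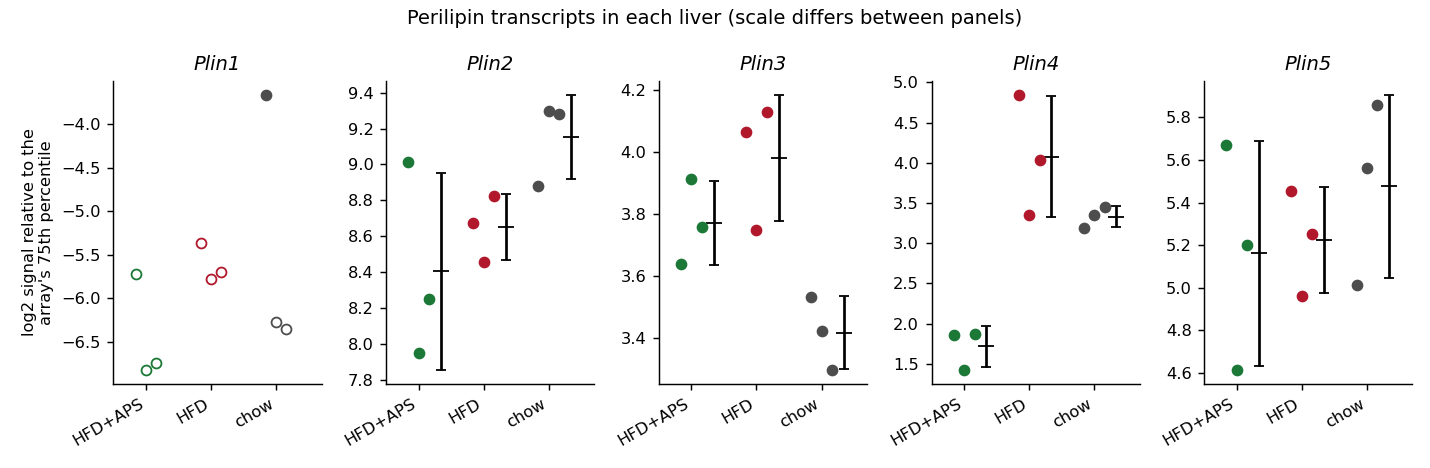
Each panel shows 1 perilipin, with a point for every liver in HFD+APS, HFD and chow (log2 signal, with each array's 75th percentile at 0), open points not well above background, and black bars for the mean and SD of 3 livers (not drawn for Plin1). The HFD+APS livers lie lowest for Plin4, at 1.42 to 1.87, and the chow livers lie lowest for Plin3, at 3.30 to 3.53.

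Plin4 also fell in HFD+APS livers against chow livers, which asked how far the treated livers stood from standard feeding. Means were 1.72 ± 0.25 in HFD+APS and 3.33 ± 0.13 in chow (SD, n = 3 each), a log2 difference of -1.61 ± 0.33 (limma adjusted p = 0.0428) and a signal 3.06-fold lower. Of the 4 perilipins tested, 1 fell and 0 rose, beside 2.52% of all features that fell, 0.964% that rose and 3.48% called in either direction. At an unadjusted p under 0.05 the count was 3, beside 25.2% of all features. The call of Plin4 was lost with a random block for slide (adjusted p = 0.0885), with no filter on dim probes (adjusted p = 0.0732), and in fits that left out any chow liver, HFD 3, HFD+APS 2 or else HFD+APS 3 (adjusted p = 0.0533 to 0.138). The difference was -1.69 to -1.47 in the fits without 1 array. No slide held both HFD+APS and chow arrays, so diet and slide cannot be told apart here.

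Between HFD and chow livers Plin4 differed by 0.75 ± 0.33 on the log2 scale and did not pass (limma adjusted p = 0.167; 95% interval -0.02 to 1.51). After scaling HFD 2 lay at 3.35, inside the chow range of 3.19 to 3.46, and HFD 1 and HFD 3 lay above that range. Before scaling HFD 2, at 2701 units, lay just above the highest chow liver, at 2692 units. The log2 difference was 1.11 without HFD 2 (adjusted p = 0.0587) and 0.36 without HFD 1 (adjusted p = 0.352), so its size rested on single livers. In order of mean level Plin4 ran HFD+APS, chow, HFD, and the upper neighbours in that order did not differ beyond their spread.

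**Figure D2:**
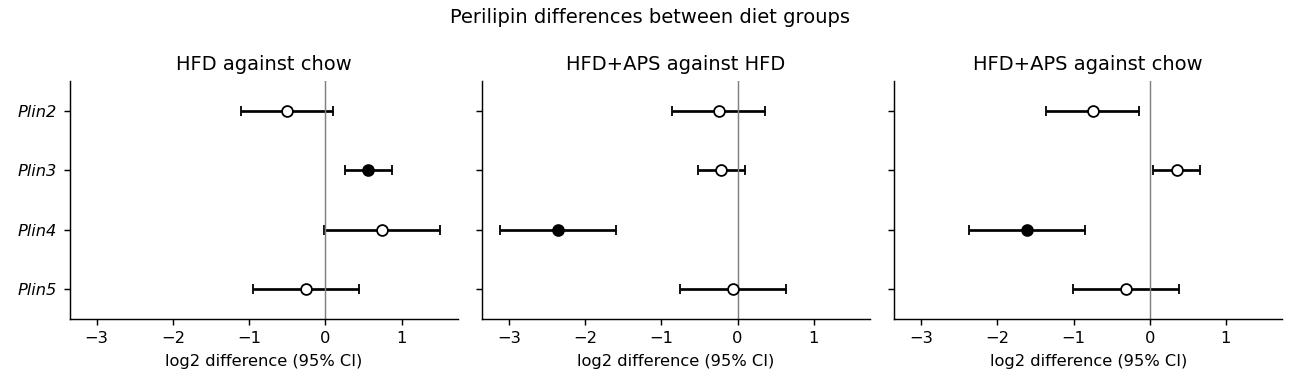
Log2 differences of the 4 perilipins tested, with 95% intervals from limma, for the 3 comparisons, where filled points have an adjusted p under 0.05. Plin4 lies at -2.36 in HFD+APS against HFD and at -1.61 in HFD+APS against chow, and Plin3 lies at 0.56 in HFD against chow.

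Adipocyte markers were read beside Plin4, since Plin4 and Plin1 are coats of fat cell droplets. Their summed relative signal was 3.58 to 4.16 in HFD+APS, 8.77 to 28.2 in HFD and 2.03 to 11.5 in chow livers, with 2 to 4, 2, and 2 to 5 of 7 markers well above background. Cfd, which codes for the adipocyte protease adipsin, stood at -2.16, -1.60 and -1.59 in HFD+APS, 4.41, 1.42 and 4.18 in HFD and 2.44, -2.28 and -3.48 in chow. HFD 2 was the lowest HFD liver for Cfd as it was for Plin4. Adipoq and the leptin gene Lep were not well above background in any HFD or HFD+APS liver, and Lep was not in chow either. Of the 3 adipocyte markers tested 0 passed in HFD+APS against HFD by limma, beside 1.5% of all features. At an unadjusted p under 0.05 there were 2, beside 17.9% of all features. These were Cfd (-5.12 ± 1.44, limma adjusted p = 0.126) and Fabp4, a fatty acid carrier (-1.10 ± 0.39, adjusted p = 0.194). Cfd and Fabp4 were the 2 markers well above background in HFD livers, and they made up most of the HFD sums. Chow 1, with its Adipoq and Cfd signal, had the lowest Plin4 level of the chow livers, and without it the HFD+APS and chow difference of Plin4 was -1.69. The part of adipocyte RNA in the HFD values was not tested, and in whole liver fewer cells of a type cannot be told apart from less RNA per cell.

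**Figure D3:**
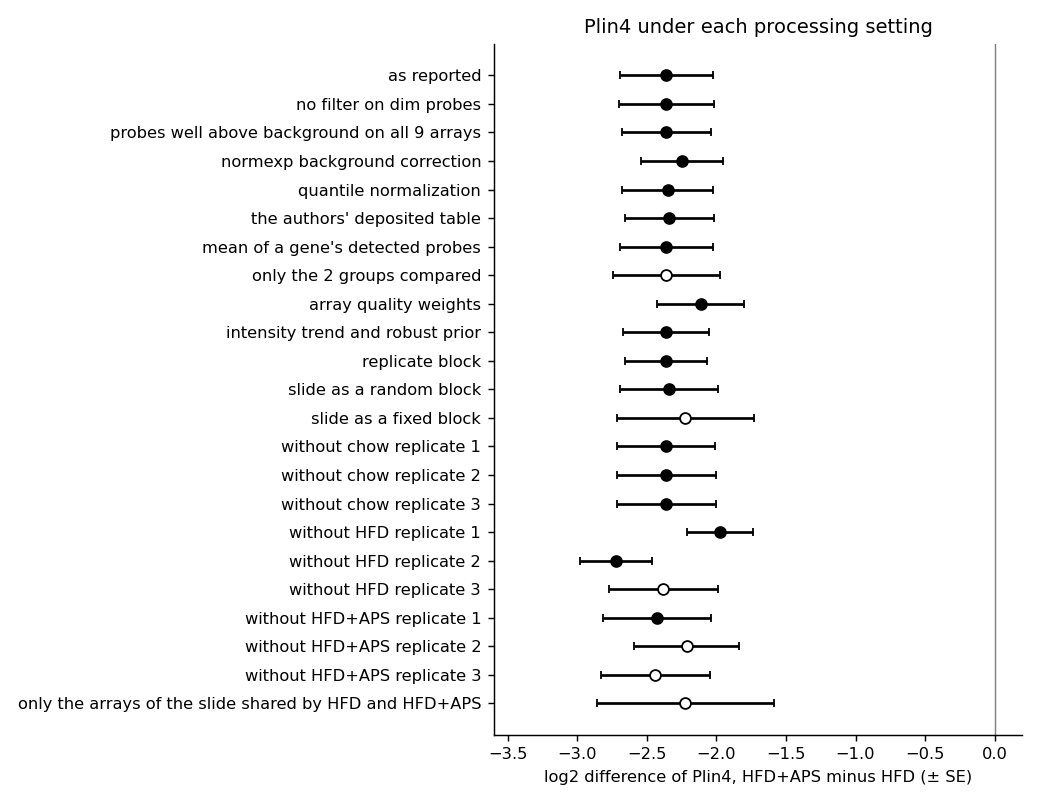
Log2 difference of Plin4 between HFD+APS and HFD (± SE) as reported and under each other setting, with filled points where the adjusted p was under 0.05. The difference runs from -2.72 to -1.98 over all settings, and the points that lost the call are the fit of 2 groups, the 2 fits within a slide and 3 fits without 1 array.

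Plin1 was at or near background in these livers. Its level was -5.72, -6.83 and -6.74 in HFD+APS, -5.37, -5.78 and -5.70 in HFD and -3.66, -6.27 and -6.36 in chow. The signal was well above background on 1 of the 9 arrays, chow 1, the same array that held Adipoq. Plin1 was therefore not among the 4 members tested and no fold is given. The probe limits this result, since the lowest signal called well above background lay between -3.13 and -3.51 on the slide of the HFD arrays and between -4.54 and -4.04 on the others.

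Plin3 was the perilipin that rose in HFD livers against chow livers, a comparison that asked which transcripts differed after fat feeding. Its level was 4.07, 3.75 and 4.13 in HFD, against 3.53, 3.42 and 3.30 in chow, and it was 3.64, 3.91 and 3.76 in HFD+APS. All 6 livers of the high-fat diets lay above the highest chow liver. HFD and chow means were 3.98 ± 0.20 and 3.42 ± 0.12 (SD, n = 3 each), with a log2 difference of 0.56 ± 0.14 (limma adjusted p = 0.038), or 1.48-fold. Of the 4 perilipins tested 1 rose and 0 fell, beside 4.55% of all features that rose, 6.39% that fell and 10.9% called in either direction. At an unadjusted p under 0.05 the count was 1, beside 31.4% of all features, and 2 had groups that did not overlap, beside 38.9% of all features. The call of Plin3 was lost with a random block for slide (adjusted p = 0.0759), in the fit of the 2 groups alone (adjusted p = 0.0568), with no filter on dim probes (adjusted p = 0.0812), and without any 1 of the chow livers, HFD 1, HFD 3 or HFD+APS 3 (adjusted p = 0.0593 to 0.107).

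HFD+APS livers lay between the other groups for Plin3. The log2 difference was -0.21 ± 0.14 against HFD (limma adjusted p = 0.448; 95% interval -0.52 to 0.10) and 0.35 ± 0.14 against chow (adjusted p = 0.156; 0.04 to 0.66). Plin3 and Plin4 were the 2 of 4 members whose HFD+APS and chow values did not overlap, beside 30.9% of all features. Macrophage markers, read because fat-fed liver can hold more of these cells, had summed signals of 53.8 to 108 in HFD+APS, 69.5 to 133 in HFD and 45.8 to 63.6 in chow livers. Of 11 macrophage markers tested in HFD against chow 1 rose, Trem2, a receptor of lipid-laden macrophages (2.33 ± 0.50, limma adjusted p = 0.0278), and 0 fell, beside 4.55% of all features that rose and 6.39% that fell. The shift was wider than that gene: 9 of the 11 were above 0 and 2 below, with a median of 1.05. An unadjusted limma p under 0.05 was reached by 8, beside 31.4% of all features. Among these 8, Cd9 was lower in HFD (-0.71). Stellate cell markers had summed signals of 128 to 149 in HFD+APS, 135 to 157 in HFD and 76.3 to 137 in chow livers. In HFD against chow 2 of 11 rose (Col1a1 and Col3a1, collagens) and 0 fell, beside 4.55% and 6.39% of all features. An unadjusted limma p under 0.05 was reached by 3 of the 11, beside 31.4% of all features. The part of these cells in the Plin3 difference was not tested.

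Plin2, the common droplet coat of hepatocytes, had 0 calls in the 3 comparisons. Its level was 9.01, 7.95 and 8.25 in HFD+APS, 8.67, 8.46 and 8.82 in HFD and 8.88, 9.30 and 9.28 in chow. After scaling the highest HFD liver lay just under the lowest chow liver, while HFD+APS livers overlapped both groups. Before scaling HFD and chow overlapped, with HFD 3 at 118700 units and chow 1 at 111500 units. The difference of HFD from chow was -0.50 ± 0.26 (limma adjusted p = 0.232), with a 95% interval of -1.11 to 0.10. HFD+APS differed from chow by -0.75 ± 0.26 (adjusted p = 0.133), and by -1.05 with adjusted p = 0.0171 when HFD+APS 1 was left out. Against HFD the difference was -0.25 ± 0.26 (limma adjusted p = 0.657). On the shared slide, where HFD+APS 1 was the only HFD+APS array, it was 0.36, of the opposite sign. Single livers moved the difference over all arrays, to -0.55 without HFD+APS 1 and -0.02 without HFD+APS 2.

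Plin5, which ties droplets to mitochondria, also had 0 calls. Its level was 5.67, 4.61 and 5.20 in HFD+APS, 5.45, 4.96 and 5.25 in HFD and 5.01, 5.56 and 5.86 in chow, so that all groups overlapped. Differences were -0.25 ± 0.30 for HFD against chow (limma adjusted p = 0.605; 95% interval -0.95 to 0.44), -0.06 ± 0.30 for HFD+APS against HFD (adjusted p = 0.939; -0.76 to 0.63) and -0.32 ± 0.30 for HFD+APS against chow (adjusted p = 0.558; -1.01 to 0.38). The HFD+APS and HFD difference changed sign without HFD 1 or HFD+APS 2 (0.06 and 0.21). It also did so on the shared slide (0.45), where HFD+APS 1 was the only HFD+APS array. Leaving out 1 array moved the other differences of Plin5 between -0.49 (without chow 1) and -0.06 (without chow 3) for HFD against chow, and between -0.57 (without HFD+APS 1) and -0.04 (without HFD+APS 2) for HFD+APS against chow. For both Plin2 and Plin5 the group means ran HFD+APS, HFD, chow from low to high, and no neighbours in it passed the test.

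Among the pairs of tested members, Plin2 and Plin5 had the strongest correlation. Over the 9 arrays Pearson's r was 0.831 (exact permutation p = 0.00595; 0.0357 adjusted over the 6 pairs of tested members) and Spearman's rho was 0.8 (exact permutation p = 0.0138; 0.0828 adjusted), both 2-sided. The permutations shuffled all 9 arrays regardless of group or slide, so these p-values do not set differences between groups or slides aside. Without HFD+APS 2 and HFD+APS 3, the arrays farthest from the median of Plin2, r was 0.759, and with group means removed it was 0.885. The slides held 2 to 4 arrays, too few for a correlation within each, and with slide means removed over the 9 arrays r was 0.896. HFD+APS 2, lowest for both genes, shared a slide with HFD+APS 3. In the other 5 pairs r ran from -0.596 for Plin2 with Plin3 (exact permutation p = 0.0921; 0.276 adjusted) to 0.447 for Plin2 with Plin4 (exact permutation p = 0.229; 0.344 adjusted). Plin4 and Plin5, neighbours on the chromosome, had r = 0.338 over all arrays (exact permutation p = 0.37, or 0.444 adjusted). Their r was 0.617 with group means removed and -0.066 with slide means removed. For Plin3 with Plin4 r was 0.192, and 0.308 and 0.715 with group means or slide means removed.

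**Figure D4:**
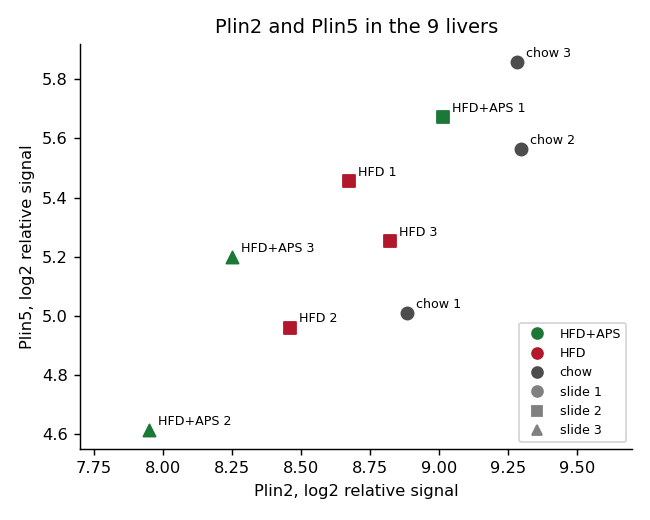
Each point is 1 liver, with the log2 relative signal of Plin2 across and of Plin5 upward, coloured by diet group and shaped by slide. The points rise together (r = 0.831, n = 9), with HFD+APS 2 lowest at 7.95 and 4.61.

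The RefSeq sequences (GRCm38.p6) of the 250 bases before the annotated start of Plin4, Plin2 and Plin5 are shown. Plin4 carried the change in HFD+APS, and the other pair had the strongest correlation among the tested members. Windows of all 5 members were found, 2 of them for Plin5. Both strands were searched for AGGTCA, a core site of many nuclear receptors including the PPARs, for the direct repeat of the core site with 1 base between the copies, which overlaps it, and for the E-box CACGTG. The core site AGGTCA stood once in the Plin2 window (218 bases before the start, on the opposite strand) and once in 1 Plin5 window (170 bases before the start), in capitals below, and 14% of 32851 such windows of RefSeq genes hold it. It was in 0 windows of Plin1, Plin3 and Plin4. The direct repeat and the E-box were in 0 member windows, beside 0.0335% and 6.02% of all windows. The windows lie on the minus strand at chr17:56109783-56110032 for Plin4, chr4:86670060-86670309 for Plin2 and chr17:56117549-56117798 for Plin5.
Plin4: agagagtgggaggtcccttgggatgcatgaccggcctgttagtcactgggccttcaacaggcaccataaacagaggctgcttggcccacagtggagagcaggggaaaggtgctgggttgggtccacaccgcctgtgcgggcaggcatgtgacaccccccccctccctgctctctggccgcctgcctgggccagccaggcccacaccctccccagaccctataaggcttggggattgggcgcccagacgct
Plin2: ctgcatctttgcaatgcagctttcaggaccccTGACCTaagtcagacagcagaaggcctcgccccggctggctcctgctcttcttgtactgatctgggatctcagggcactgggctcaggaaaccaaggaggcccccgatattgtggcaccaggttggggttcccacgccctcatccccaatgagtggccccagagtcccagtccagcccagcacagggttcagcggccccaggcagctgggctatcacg
Plin5: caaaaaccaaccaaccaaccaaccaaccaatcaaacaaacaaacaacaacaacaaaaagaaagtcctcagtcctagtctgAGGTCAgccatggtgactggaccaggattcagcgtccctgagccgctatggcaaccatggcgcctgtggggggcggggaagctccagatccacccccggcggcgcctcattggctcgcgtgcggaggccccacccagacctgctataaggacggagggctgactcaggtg

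Other proteins of the droplet surface were read beside the perilipins from a list of 26 genes, of which 25 were tested. In HFD+APS against HFD 0 rose, 1 fell and 24 did not pass, beside 0.476% of all features that rose and 1.03% that fell. The median difference was -0.07, beside 0.00 over all features. An unadjusted limma p under 0.05 was reached by 7, beside 17.9% of all features. The gene that fell was Cidea, a droplet fusion protein (-6.06 ± 0.65, limma adjusted p = 0.01), at -1.72, -1.53 and -1.74 in HFD+APS, against 6.10, 2.98 and 4.11 in HFD and -2.63, -3.08 and -2.84 in chow. Among the HFD livers HFD 1 was highest and HFD 2 lowest for Cidea, as for Plin4. Cidec, a related fusion protein that works with Plin1 in fat cells, was at 3.93, 1.11 and 1.48 in HFD+APS, 5.54, 3.91 and 4.19 in HFD and 2.43, 3.20 and 2.60 in chow (HFD+APS against HFD -2.37 ± 0.73, adjusted p = 0.154). HFD+APS 1 overlapped the HFD livers for Cidec.

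In HFD against chow 3 of the 25 droplet genes rose, 1 fell and 21 did not pass, beside 4.55% of all features that rose and 6.39% that fell. The median was 0.02, beside -0.04 over all features, and 9 had an unadjusted p under 0.05, beside 31.4% of all features. Cidea rose (7.25 ± 0.65, limma adjusted p = 0.0019), as did Fitm1, which helps package triglyceride into droplets (1.22 ± 0.20, adjusted p = 0.0147), and Bscl2, the seipin gene of droplet assembly (0.53 ± 0.10, adjusted p = 0.0223). Mettl7b, a droplet-associated methyltransferase, fell by 0.56 (adjusted p = 0.0353). In HFD+APS against chow 0 rose and 0 fell by limma, beside 0.964% and 2.52% of all features, with a median of -0.02, beside -0.03 over all features. There 3 had an unadjusted p under 0.05, beside 25.2% of all features, and Fitm1 had the smallest p (0.70 ± 0.20, adjusted p = 0.0905).

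The lipase partners of the perilipins had 0 calls among those named in the 3 comparisons. Of all features 1.5% were called in HFD+APS against HFD, 10.9% in HFD against chow and 3.48% in HFD+APS against chow. Pnpla2, the main triglyceride lipase, differed by 0.01 ± 0.19 in HFD+APS against HFD (limma adjusted p = 0.993) and by -0.48 ± 0.19 in HFD against chow (adjusted p = 0.133). Abhd5, its activator, which Plin1 and Plin5 bind, differed by -0.24 ± 0.16 (adjusted p = 0.448) and 0.43 ± 0.16 (adjusted p = 0.105) in the same comparisons. The Pnpla2 inhibitors G0s2 (-0.13 ± 0.29, adjusted p = 0.851, and -0.34 ± 0.29, adjusted p = 0.46) and Hilpda (0.06 ± 0.28, adjusted p = 0.934, and -0.09 ± 0.28, adjusted p = 0.853) did not pass. Dgat2, which makes triglyceride at the droplet, stood at -0.19 ± 0.20 (adjusted p = 0.645) and 0.55 ± 0.20 (adjusted p = 0.105). In HFD+APS against chow Pnpla2 had the smallest p of these genes (-0.48 ± 0.19, limma adjusted p = 0.173).

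**Figure D5:**
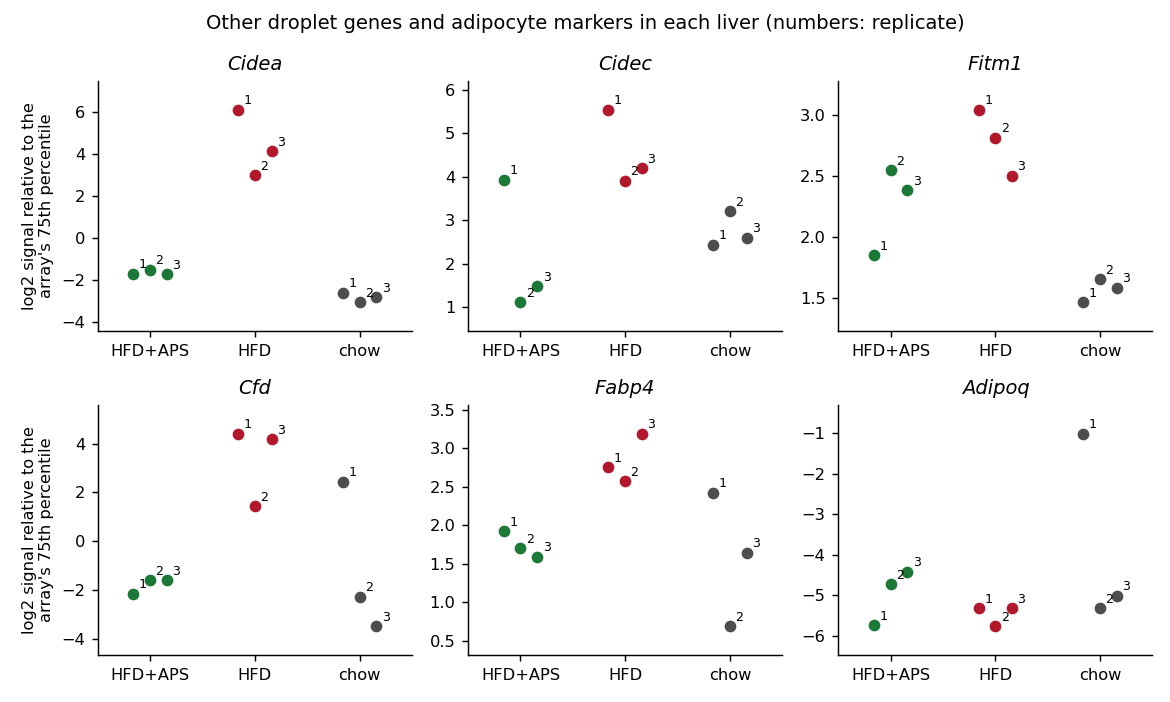
Log2 signals, with each array's 75th percentile at 0, for 3 other droplet genes (Cidea, Cidec, Fitm1) and 3 adipocyte markers (Cfd, Fabp4, Adipoq) in every liver, numbered by replicate. Cidea and Cfd are higher in all 3 HFD livers than in any HFD+APS liver, and Adipoq is high in chow 1 only, at -1.02.

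PPAR receptors and their partners, which act on perilipin genes, had 0 calls among 11 tested in each comparison by limma. Of all features 1.5% were called in HFD+APS against HFD, 10.9% in HFD against chow and 3.48% in HFD+APS against chow. Medians of the 11 were 0.10, -0.11 and -0.06 in the same order. At an unadjusted p under 0.05 there were 2, 3 and 2 of them in these comparisons, beside 17.9, 31.4 and 25.2% of all features. Pparg, the receptor that drives fat storage, was at 0.74, 1.63 and 1.43 in HFD+APS, 2.47, 1.80 and 1.89 in HFD and 1.73, 1.45 and 1.18 in chow. Its HFD+APS and HFD values did not overlap, and the difference of -0.78 ± 0.27 did not pass (limma adjusted p = 0.194). Ppara, the receptor of fasting and fat burning, differed by 0.10 ± 0.20 in HFD+APS against HFD (adjusted p = 0.832) and by -0.06 ± 0.20 in HFD against chow (adjusted p = 0.856).

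Among 21 targets of Ppara, 0 rose and 0 fell in HFD+APS against HFD by limma (median 0.04), beside 0.476% and 1.03% of all features. At an unadjusted p under 0.05 there were 4, beside 17.9% of all features. Vnn1, a pantetheinase, had the smallest p (-0.83 ± 0.19, adjusted p = 0.08). In HFD against chow 1 rose and 3 fell (median -0.16), beside 4.55% of all features that rose and 6.39% that fell, and 7 had an unadjusted p under 0.05, beside 31.4%. Vnn1 rose (1.07 ± 0.19, limma adjusted p = 0.0178), while Angptl4, an inhibitor of lipoprotein lipase, fell by 0.78 (adjusted p = 0.0216), Acot1, an acyl-CoA thioesterase, fell by 1.18 (adjusted p = 0.0333) and Ehhadh, a peroxisomal oxidation enzyme, fell by 1.52 (adjusted p = 0.0472). In HFD+APS against chow 0 were called by limma (median -0.15), beside 3.48% of all features. Angptl4 had the smallest p there (-0.54 ± 0.15, limma adjusted p = 0.082). Here 5 had an unadjusted p under 0.05, beside 25.2% of all features.

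The genes whose pattern over the 9 arrays was most like each perilipin were taken from 14137 other tested features with a RefSeq symbol, by Pearson's r and as a description, since all of them share the same arrays. Those named were well above background on every array except 3, for which r rests partly on signal near background. Plin4 was most like Mrpl16, a mitochondrial ribosomal protein (r = 0.978), Scgb2b27 (0.963; well above background on 6 of 9 arrays) and Pif1, a DNA helicase (0.952), and least like Peli2, a ubiquitin ligase (-0.976). Plin3 was most like Hs1bp3 (0.992), Tspo, a cholesterol-binding protein of the outer mitochondrial membrane (0.971), and Mindy3 (0.963), and least like the olfactory receptor gene Olfr1342 (-0.973), which was well above background on 6 of 9 arrays. Plin2 was most like Selenow, a selenoprotein (0.994), Maea (0.977) and Kmt5c, a histone methyltransferase (0.974), and least like Etfrf1 (-0.984). Plin5 was most like Mfsd2a, a transporter of lysophospholipids (0.919), Olfr338 (0.893; well above background on 4 of 9 arrays) and Scarb2, a lysosomal membrane protein (0.891).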

How the data were processed

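The authors hybridised liver RNA of 9 mice to 1-colour Agilent arrays and extracted intensities with Feature Extraction (10.7.1.1 per the file headers, 10.7 in the submitters' processing notes, which also name limma without its role). The intensity of a spot was corrected by spatial and multiplicative detrending inside each array, with low values replaced by surrogates, per the file headers. The table the authors deposited for all samples holds log2 values, with column medians of 4.98 to 5.00 and r of 0.9969 or more with the log2 scanner signal of the same array. That comparison settles its direction and shows no gene centring, and its normalization is not given in the sources used here.

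Of the 45018 spots of each array, controls and outlier spots were removed, spots of 1 probe were averaged on the log2 scale, and the 75th percentile of each array was subtracted (R 4.3.3, data.table version 1.17.8). Probes well above background on at least 3 arrays were kept and the brightest probe stood for a gene, giving 17635 features, 14142 of them with a RefSeq name (GRCm38). limma 3.58.1 was fitted to all 9 arrays with 6 residual degrees of freedom, with Benjamini-Hochberg adjustment over all features, a threshold of 0.05 and a 2-sided test, and its code was tested on simulated data. A probe-level fit over 26477 probes gave the same calls for the perilipins. The number of arrays limits the precision. The members, the gene lists (99 genes, 92 tested), the tests and the alternatives were chosen with earlier results of these data known. Named genes were the perilipins, up to 4 members of a list with the smallest p in a comparison, 9 droplet genes and receptors listed by name, and the 3 most and 1 least alike features. Not all genes so chosen are printed, and 1 result is not reported here. The 3 comparisons share their groups and are not independent. Replicate numbers pair no animals in the labels. Alternatives changed the filter, background correction, normalization, probe choice, samples in the fit, weights, and blocks for replicate number and slide, or left out 1 array.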

Additional observations from a re-analysis of the deposited data

How the results depend on the processing

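Of the settings other than leaving out an array, Plin4 ran from -2.36 to -2.11 in HFD+APS against HFD and from -1.65 to -1.51 in HFD+APS against chow, and Plin3 from 0.51 to 0.58 in HFD against chow, each with its direction kept. Why calls changed was not tested. With no filter on dim probes (more features tested) Plin3 in HFD against chow was 0.563 (adjusted p = 0.0812) and Plin4 in HFD+APS against chow -1.614 (0.0732), and the features called were 79 in HFD+APS against HFD, 224 in HFD+APS against chow and 798 in HFD against chow, beside 265, 614 and 1929 as reported. In fits of 2 groups alone (fewer samples) Plin4 in HFD+APS against HFD was -2.36 (adjusted p = 0.0862) and Plin3 in HFD against chow 0.563 (0.0568), with 25 features called in HFD+APS against HFD and 344 in HFD+APS against chow. With array quality weights Plin2 passed in HFD+APS against chow (-0.971) and in HFD against chow (-0.64), and Plin3 in HFD+APS against chow (0.42), with 2051 features called in HFD+APS against HFD, 4937 in HFD+APS against chow and 3834 in HFD against chow. Replicate numbers did not pair the samples (correlations of same-numbered deviations -0.175 to 0.164). With them as a block Plin3 in HFD against chow was 0.563 (adjusted p = 0.0754), Plin4 in HFD+APS against chow -1.614 (0.0577) and Plin4 in HFD+APS against HFD kept its call (0.0439), with 82 and 296 features called in the comparisons of HFD+APS with HFD and with chow. With slide as random block the values were 0.578 for Plin3 in HFD against chow, -1.609 for Plin4 in HFD+APS against chow and 0.012 for Plin5 in HFD+APS against HFD, with 164, 165 and 684 features called in HFD+APS against HFD, HFD+APS against chow and HFD against chow. The values of r after removing slide means, such as 0.896 for Plin2 with Plin5, were also added after seeing the data. With slide fixed, and over the 4 arrays of the shared slide alone (chosen after seeing the data, the lone HFD+APS array taken to vary like HFD), HFD+APS against HFD gave -2.223 for Plin4, 0.363 for Plin2 and 0.449 for Plin5, and the fixed block gave 120 higher and 79 lower features, beside 84 and 181 as reported, while those 4 arrays gave 0 calls by limma and 1907 features at an unadjusted p under 0.05. Normexp correction gave 268 higher and 369 lower features in HFD+APS against chow, beside 170 and 444 as reported. Leaving out 1 array gave ranges of -2.723 to -1.975 for Plin4, -0.316 to 0.212 for Plin5 (positive at 0.055 without HFD 1 and 0.212 without HFD+APS 2) and 51 to 578 features in HFD+APS against HFD. In HFD+APS against chow they were -1.692 to -1.467 for Plin4, -1.054 to -0.521 for Plin2 and 21 to 1607 features, and in HFD against chow 0.489 to 0.679 for Plin3 and 365 to 2711 features. Signal near background limits Plin1, and 3 arrays a group limit the rest.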
